A study of Homo sapiens with 6 samples.

Results

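ZEB1, ZEB2 and FN1 are 3 genes associated with the mesenchymal state of epithelial cells, and all rows carrying these names in the 2 deposited RNA tables were taken, without any further selection. They are 3 of 10661 genes with a row in either table. Each table held 9 of their transcripts, 6 of ZEB1, 1 of ZEB2 and 2 of FN1, so all 3 genes were measured in all 4 RNA libraries. The libraries were ME-180 cells labelled p63 knockdown (shp63), ME-180 control cells (plko), SiHa cells with p63 overexpression and SiHa cells labelled vector. Each group had 1 library. ME-180 and SiHa are human cervical carcinoma cell lines, and all libraries were from passages 13 to 15. The labels give neither the shp63 target sequence nor which p63 isoform was overexpressed. The series also holds a p63 chromatin immunoprecipitation and its input from ME-180. Its peaks could not be placed on these genes, since no gene positions of their build were used here. The comparisons ask how RNA levels change when p63, a transcription factor of stratified epithelia encoded by TP63, is reduced or raised.

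ZEB1 and ZEB2 are zinc finger repressors that bind E-box sequences in the promoters of epithelial genes, and they are among the master regulators of the epithelial-mesenchymal transition. The microRNAs miR-205 and the miR-200 family repress both ZEB factors, and ZEB factors in turn repress miR-200 genes. FN1 encodes fibronectin, a matrix glycoprotein that cells bind through integrins and that is a common marker of mesenchymal cells.

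Promoter windows of RefSeq (build GRCh38.p14) are shown for the 3 genes and for CLDN7, an epithelial claudin described below, because CACCTG, searched on both strands as CACCTG and CAGGTG, is the E-box that ZEB factors bind. Each window runs from 250 bases before to 50 bases after a RefSeq start, 5′ to 3′ on the gene's strand. The ZEB1 window is on the plus strand at chr10:31318966-31319265, ZEB2 on the minus strand at chr2:144520070-144520369, FN1 on the minus strand at chr2:215436019-215436318 and CLDN7 on the minus strand at chr17:7262429-7262728. Capitals mark CACCTG or CAGGTG, and also TGACGTCA, the cyclic AMP response element known from the fibronectin promoter.
ZEB1: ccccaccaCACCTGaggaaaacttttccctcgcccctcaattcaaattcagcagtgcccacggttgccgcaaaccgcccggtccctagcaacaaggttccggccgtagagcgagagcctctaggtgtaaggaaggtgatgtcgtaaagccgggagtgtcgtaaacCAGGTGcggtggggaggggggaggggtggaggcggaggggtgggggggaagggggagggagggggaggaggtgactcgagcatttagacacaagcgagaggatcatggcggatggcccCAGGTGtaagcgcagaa
ZEB2: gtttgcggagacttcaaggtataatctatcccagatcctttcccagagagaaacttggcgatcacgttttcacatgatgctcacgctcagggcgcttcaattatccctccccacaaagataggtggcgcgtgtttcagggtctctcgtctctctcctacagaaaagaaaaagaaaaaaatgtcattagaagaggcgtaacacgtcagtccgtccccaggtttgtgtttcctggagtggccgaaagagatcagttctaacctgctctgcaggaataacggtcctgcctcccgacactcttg
FN1: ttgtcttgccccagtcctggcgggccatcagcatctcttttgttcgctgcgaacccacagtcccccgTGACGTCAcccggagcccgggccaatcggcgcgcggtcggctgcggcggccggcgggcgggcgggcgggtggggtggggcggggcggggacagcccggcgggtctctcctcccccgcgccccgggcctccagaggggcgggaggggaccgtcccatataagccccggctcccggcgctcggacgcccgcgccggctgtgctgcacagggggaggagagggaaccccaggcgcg
CLDN7: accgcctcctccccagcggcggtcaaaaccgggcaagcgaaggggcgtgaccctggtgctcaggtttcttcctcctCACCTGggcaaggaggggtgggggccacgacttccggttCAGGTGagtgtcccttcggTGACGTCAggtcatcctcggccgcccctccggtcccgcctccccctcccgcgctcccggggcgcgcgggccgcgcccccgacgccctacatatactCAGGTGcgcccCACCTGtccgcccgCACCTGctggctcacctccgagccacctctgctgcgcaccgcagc
Of 35116 RefSeq windows of this length, 20.6% held the E-box at least once, 0.635% at least 3 times and 0.094% at least 5 times. The ZEB1 window shown held it 3 times, at positions 9, 166 and 284 of the window, and was printed because it held the most among 7 ZEB1 windows, of which 2 held any. The single ZEB2 and FN1 windows held none, and of 2 CLDN7 windows the one shown held 5 and the other 0. SPINT1, another epithelial gene described below, was searched too, and its 2 windows held 1 and 0. The CLDN7 window shown is thus the one with the most among these 2 epithelial genes. TGACGTCA occurred in 1.85% of windows, among them those of FN1 and CLDN7 shown. These are matches of letters, not shown binding sites.

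The labelled knockdown library stood apart from its control beyond TP63. The totals of the tables' rows were 10046579 counts for ME-180 knockdown, 10804272 for ME-180 control, 13690639 for SiHa overexpression and 14207637 for SiHa vector, and are not full depths. The TP63 transcript NM_001114980.1 had 6 counts in ME-180 knockdown against 5619 in control, and 179 counts in SiHa overexpression against 7 in vector. Over 5573 genes at 1 CPM or more (counts scaled to a table total of 1000000) in both lines, log2(CPM + 1) values of the ME-180 libraries had a Pearson's r of 0.697. The r of ME-180 knockdown was 0.786 with SiHa overexpression and 0.811 with SiHa vector. The r of ME-180 control was likewise 0.806 with SiHa overexpression and 0.799 with SiHa vector, and the SiHa libraries had 0.990 with each other. These correlations are across genes of single libraries. Whether both ME-180 libraries came from the same cells apart from p63 was not tested, which touches every ME-180 difference below. The rule for a call, in either direction, was a 2-fold difference on the log2(CPM + 1) scale with 1 CPM or more in at least 1 of the libraries compared. By this rule 28.2% of 6783 genes were higher and 20.6% lower in ME-180 knockdown, and the median log2 ratio was 0.28. That is 1914 genes higher and 1400 lower, and under trimmed mean scaling, which brings the median to 0.00, 1496 were higher and 1657 lower. In SiHa, 0.572% of 6996 genes were higher and 0.743% lower with overexpression. With 1 library per group no test of the conditions exists, and the 95% intervals below cover counting error only.

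ZEB2 and ZEB1 were near absent in ME-180 control and present in the labelled knockdown, and FN1 was low in control and higher in the knockdown. ZEB2 (NM_001171653.1) had 223 counts in ME-180 knockdown against 1 in control, which is 22.2 CPM in knockdown and 0.0926 CPM in control. The ratio was 240 with an interval of 42.6 to 9514. The control level had a 95% upper limit of 0.516 CPM.

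The 6 ZEB1 transcripts share most of their sequence, so a read can count for several rows, and they are not independent. They had between 165 and 179 counts in ME-180 knockdown against 0 to 2 in control. NM_001174096.1, the highest in ME-180, had 179 counts in knockdown against 1 in control, that is 17.8 CPM in knockdown and 0.0926 CPM in control, for a ratio of 193 (34.1 to 7645). NM_001174094.1 had 170 counts in knockdown against 0 in control, at least 60.9-fold higher against a floor of 3 counts in that library (lower 95% limit 49.0). The log2 ratios of the 6 transcripts lay between 3.88 and 4.16. In RefSeq the opposite-strand genes ZEB1-AS1, ZEB2-AS1 and FN1-DT overlap the starts of the 3 genes, and without a stated strand setting their reads cannot be told apart there. In bulk RNA, fewer cells expressing a gene and less RNA per cell cannot be told apart either.

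FN1 differed by less and was already detected in control. NM_002026.2 had 140 counts in ME-180 knockdown against 24 in control, that is 13.9 CPM in knockdown and 2.22 CPM in control, for a ratio of 6.27 (4.05 to 10.1). NM_054034.2, a truncated FN1 transcript, had 11 counts in knockdown against 2 in control, a ratio of 5.91 (1.29 to 54.9). The short transcript did not pass the 2-fold rule on the scale with the pseudocount (log2 ratio 0.82), and its interval includes the ratio of the long one.

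All 3 genes were called higher in ME-180 knockdown, where 28.2% of all genes were. ZEB2 ranked 88, ZEB1 118 and FN1 490 from the top among 6783 log2 ratios, at 4.41, 4.11 and 2.21. A pattern of at most 1 count in control and at least 100 in knockdown was shared by 90 genes, 1.33% of 6783, ZEB1 and ZEB2 among them. The reverse, at least 100 counts in control and at most 1 in knockdown, was found for 132 genes or 1.95%. In the authors' deposited table, the log2 fold changes in ME-180 were 7.43 for ZEB2 (adjusted p 1.94e-18), 7.11 for ZEB1 NM_001174096.1 (1.56e-16) and 2.32 for FN1 NM_002026.2 (4.7e-05). The deposited p-values compare 2 single libraries and contain no replicate error.

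**Figure D1:**
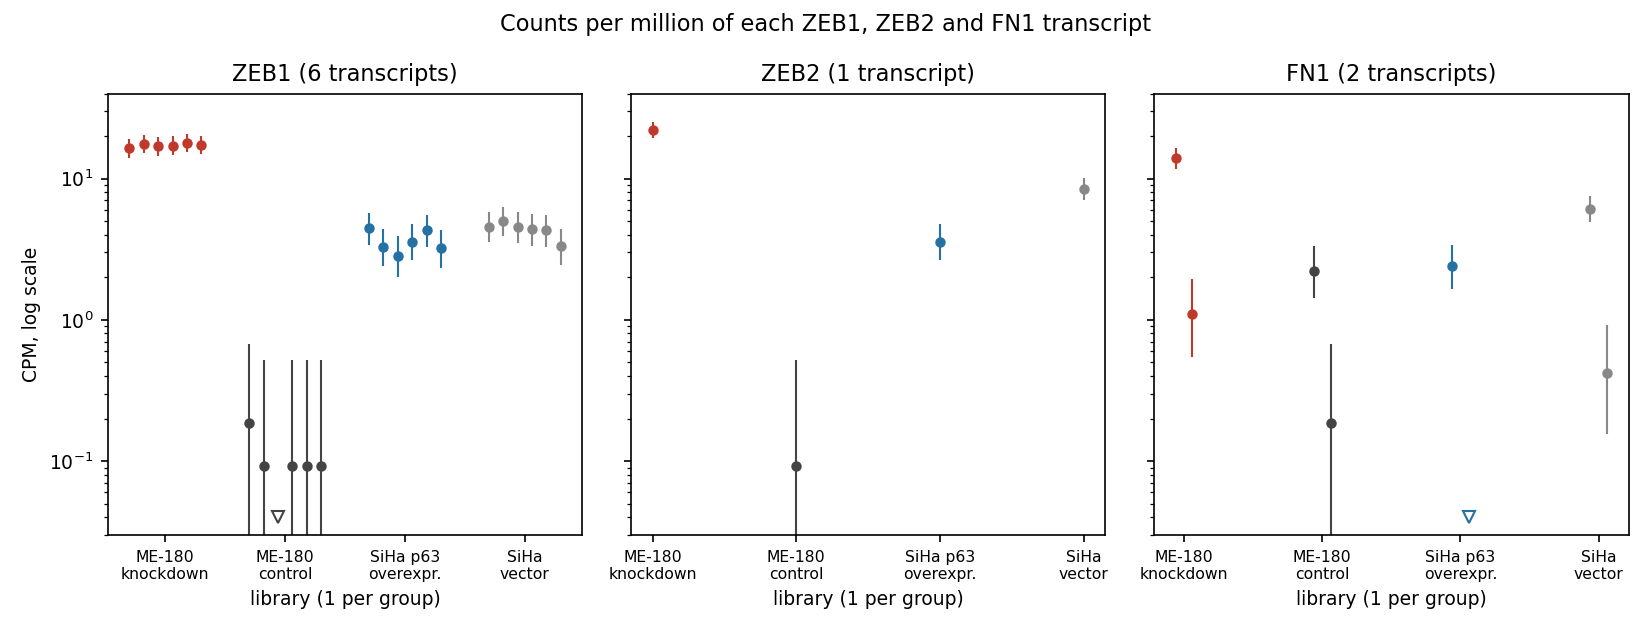
CPM (log scale) of every ZEB1, ZEB2 and FN1 transcript in each library, with points for values, bars for exact 95% Poisson intervals of counting error cut at the axis, and open triangles for 0 counts. All ZEB1 transcripts sit between 16.4 and 17.8 CPM in ME-180 knockdown and at 0 to 0.185 CPM in ME-180 control, with both SiHa libraries in between.

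In SiHa, ZEB2 and FN1 were lower with p63 overexpression by a little over 2-fold, and ZEB1 did not pass the rule. ZEB2 had 49 counts in overexpression against 120 in vector, or 3.58 against 8.45 CPM, 2.36-fold lower (1.68 to 3.36). FN1 NM_002026.2 had 33 counts in overexpression against 87 in vector, or 2.41 against 6.12 CPM, 2.54-fold lower (1.68 to 3.92). The short FN1 transcript had 0 counts in overexpression against 6 in vector, at least 1.93-fold lower if 3 counts are taken as the floor (lower 95% limit 1.13).

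ZEB1 NM_001128128.2, its highest transcript in SiHa, had 61 counts in overexpression against 65 in vector, that is 4.46 CPM in overexpression and 4.58 CPM in vector, for a ratio of 0.974 (0.675 to 1.40). The other transcripts had 39 to 59 counts in overexpression against 47 to 71 in vector. Of the 6, NM_001174093.1 and NM_001174094.1 had count intervals below 1, with ratios of 0.658 (0.442 to 0.969) and 0.632 (0.413 to 0.956). Their log2 ratios were -0.48 and -0.52, against 0.00 for NM_001174096.1, and none of the 6 passed the 2-fold rule.

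ZEB2 and FN1 were thus 2 of 52 genes called lower in SiHa, where 0.743% of genes were. Their log2 ratios of -1.04 and -1.06 lay just past the 2-fold line, at ranks 45 and 38 from the lowest of 6996, and ZEB1 had -0.03. Neither call held with a pseudocount of 5 (-0.65 for ZEB2 and -0.59 for FN1). In the authors' deposited table, ZEB2 had a log2 fold change of -1.20 and FN1 NM_002026.2 one of -1.30, both with an adjusted p of 1.

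ZEB2 and FN1 were among 20 genes called both higher in ME-180 knockdown and lower in SiHa overexpression, 0.359% of the 5573 genes at the floor in both lines. The 20 included LIN28B, an inhibitor of let-7 maturation, with log2 ratios of 7.39 in ME-180 and -1.14 in SiHa. They also included COMP, a cartilage matrix protein, at 4.16 and -1.05, and JAM2, a junctional adhesion molecule, at 2.10 and -1.05. These 3 were chosen after their values were seen. The opposite pattern, lower in knockdown and higher in overexpression, held for 14 genes or 0.251%, TP63 among them.

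**Figure D2:**
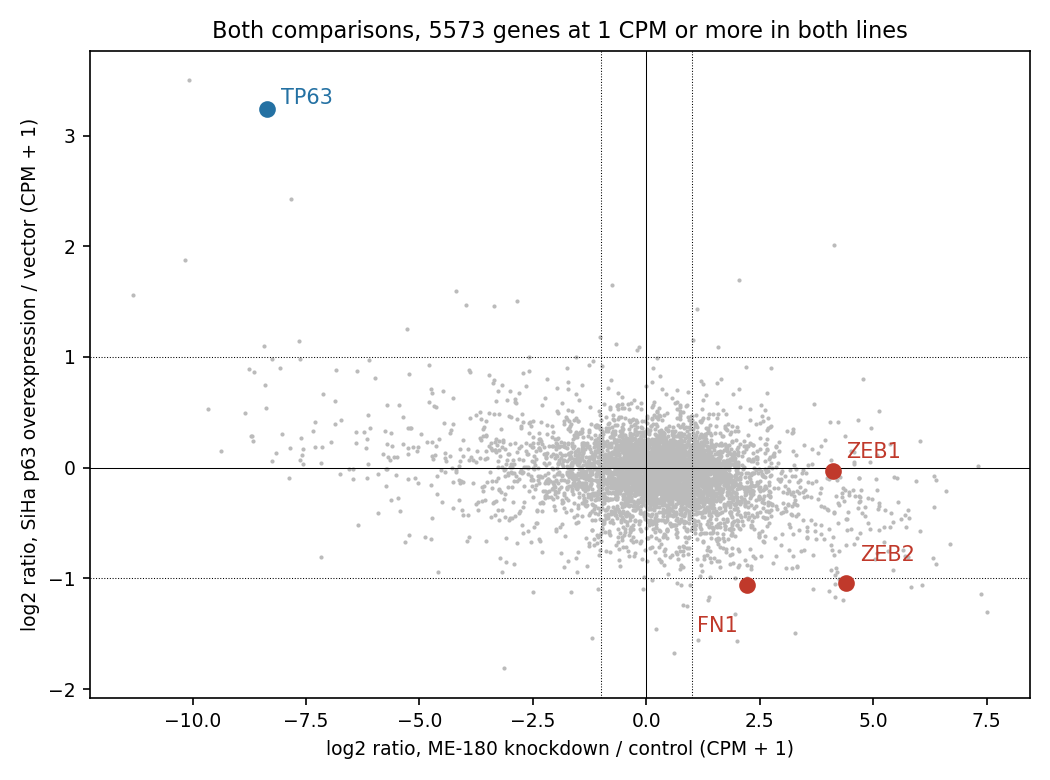
Log2 ratio of ME-180 knockdown over control (x axis) against log2 ratio of SiHa p63 overexpression over vector (y axis), both of CPM + 1, for 5573 genes, with solid lines at 0 and dotted lines at 2-fold. ZEB2 (4.41, -1.04) and FN1 (2.21, -1.06) lie at the lower right and ZEB1 (4.11, -0.03) near 0 on the y axis, with TP63 at the upper left.

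Across the 4 libraries the order of levels was the same at its ends for all 3 genes, lowest in ME-180 control and highest in ME-180 knockdown. The tables of the lines hold different sets of transcripts, so levels across them are given on the totals of the 13206 transcripts found in both. That scale covers 99.7% of counts of ME-180 knockdown, 99.6% of control, 68.9% of SiHa overexpression and 69.2% of vector. ZEB1 (NM_001174096.1) was 17.9 CPM in ME-180 knockdown, 0.0930 in ME-180 control, 6.25 in SiHa overexpression and 6.21 in SiHa vector on this scale. ZEB2 was 22.3, 0.0930, 5.19 and 12.2 CPM in the same libraries. FN1 (NM_002026.2) was 14.0, 2.23, 3.50 and 8.85 CPM.

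ME-180 knockdown exceeded SiHa vector 2.88-fold for ZEB1 (2.14 to 3.92), 1.82-fold for ZEB2 (1.45 to 2.30) and 1.58-fold for FN1 (1.20 to 2.09). On the totals of each whole table these ratios were 4.15, 2.63 and 2.28. For ZEB1 NM_001174096.1 the SiHa libraries did not differ beyond counting error, while 2 other ZEB1 transcripts had the intervals below 1 given above. For FN1, ME-180 control and SiHa overexpression did not either, with a ratio of 0.638 (0.361 to 1.11).

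The genes whose log2(CPM + 1) values lay nearest to each of the 3 over the 4 libraries were found by Euclidean distance among 7624 genes with rows in both tables. CPM is not scaled to length, so the distance also reflects transcript length. ZEB1 lay nearest to CCDC74B (distance 0.34), TESC, a calcium-binding protein (0.34), and CCDC74A (0.61), where CCDC74A and CCDC74B are close copies that can share reads. CCDC74B had 178 counts in ME-180 knockdown against 0 in control, and 62 in SiHa overexpression against 84 in vector. ZEB2 lay nearest to PRAME, a cancer-testis antigen (0.55), BEX5 (0.56) and TESC (0.58). TESC had 201 counts in ME-180 knockdown against 2 in control, and 53 in SiHa overexpression against 78 in vector. FN1 lay nearest to CCDC136 (0.61), ANKRD6 (0.65) and AATK, a kinase (0.74). ZEB1 and ZEB2 were 0.86 apart, and FN1 was 1.77 from ZEB1 and 1.78 from ZEB2.

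Other transcription factors of the epithelial-mesenchymal transition mostly did not pass the rule beside ZEB1 and ZEB2. Of 20 listed factors, 9 had a row in ME-180 and 7 reached 1 CPM. Of these 7, 3 were higher, where 28.2% of all genes were, and 0 lower. Without ZEB1 and ZEB2 themselves, 1 of 5 was higher and the median log2 ratio was 0.19, against 0.28 for all genes. That gene was TCF4, an E-box binding factor, with 89 counts in knockdown against 24 in control (log2 ratio 1.61). TWIST1 had 413 counts in knockdown against 299 in control (0.55). SNAI1 and SNAI2 had no row in either table, and a missing row is not a level of 0. In SiHa, 1 of 9 was lower, which was ZEB2, and 0 were higher (median -0.23, against -0.05 for all genes). Of all SiHa genes 0.743% were lower and 0.572% higher.

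Epithelial genes known to be bound or repressed by ZEB factors were mostly lower in ME-180 knockdown. All 15 of 31 listed genes with a row reached 1 CPM, 13 of them were lower and 0 higher (median log2 ratio -2.65), where 20.6% of all genes were lower. SPINT1, a protease inhibitor of epithelia, had 0 counts in knockdown against 2034 in control, at least 630-fold lower against the floor of 3 counts (lower 95% limit 512). ESRP1, an epithelial splicing regulator, had 0 counts in knockdown against 902 in control, at least 280-fold lower (lower limit 227). CLDN7, a tight junction claudin, had 9 counts in knockdown against 2367 in control, 245-fold lower (129 to 535). SPINT2, the paralog of SPINT1, was 79.3-fold lower (64.2 to 99.1). The exceptions were OCLN, occludin, at a log2 ratio of 0.57, and MUC1 at -0.52. CDH1 and EPCAM had no row in ME-180. The markers listed for cervical squamous lines were lower as well, 6 of 7 (median -8.35), TP63 among them. Whether ZEB factors had a part in these levels was not tested. In SiHa, 0 of 18 genes of the epithelial list passed the rule in either direction (median 0.24). Among all SiHa genes 0.572% were higher and 0.743% lower. DSP, desmoplakin, and TJP3, a tight junction protein, were both at 0.67 in SiHa. RefSeq promoter windows were found for 15 of the listed genes. Of their 21 windows, 14 held the E-box (66.7%), against 20.6% of all windows. The 7 of these genes that were lower in ME-180 knockdown held it in 6 of 10 windows (60%). OCLN and MUC1, the exceptions above, held it in 2 of 2 windows each. The list was drawn up from genes known for ZEB binding or repression, so these shares follow in part from the choice. Whether the E-box goes with the lower levels was not tested.

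MIR205HG, the host gene of miR-205, was the 1 of 8 listed miR-200 and miR-205 genes with a row, and it was high in ME-180 control alone. It had 0 counts in ME-180 knockdown against 7291 in control, at least 2260-fold lower (lower limit 1837). In SiHa it had 8 counts in overexpression against 9 in vector. The mature miR-205 lies within this gene in RefSeq, at chr1:209432166-209432187 (GRCh38.p14, plus strand), and is shown with its seed, bases 2 to 8, in capitals because miR-205 is known to repress both ZEB factors.
hsa-miR-205-5p: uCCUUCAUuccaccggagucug
The tables count host gene transcripts, and the mature microRNA was not measured here.

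Genes of proteins that work with ZEB factors were measured as RNA, and only part of those listed had rows. Of 23 listed partners, 12 reached 1 CPM in ME-180, with 3 higher and 2 lower (median 0.62), both near the shares of all genes, 28.2% higher and 20.6% lower. MTA1, a subunit of the NuRD repressor complex, had a log2 ratio of 1.53, SMARCA4, a chromatin remodelling ATPase, 1.14 and KDM1A, a histone demethylase, 1.13. Of these 3, only MTA1 stayed past the rule under trimmed mean scaling. SMAD3, the TGF-beta effector that binds ZEB factors, was 10.7-fold lower (9.30 to 12.4), and YAP1, a Hippo pathway coactivator, had -1.19. CTBP1 and CTBP2, the corepressors of both ZEB proteins, were at 0.91 and 0.87, short of the rule. In SiHa 0 of 16 partners passed it (median -0.11), where 0.572% of all genes were higher and 0.743% lower.

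TGF-beta signalling, a known inducer of ZEB1, ZEB2 and FN1, had 5 genes lower and 1 higher in ME-180 knockdown of 12 at 1 CPM among 25 listed (median -0.36). Of all genes 20.6% were lower and 28.2% higher. SMAD3, also counted among the ZEB partners, was the lowest at -3.36. The ligand TGFB2 had 12 counts in knockdown against 139 in control, 10.8-fold lower (5.97 to 21.3). The receptor TGFBR2 was the gene that was higher, with 69 counts in knockdown against 0 in control, at least 24.7-fold (lower limit 19.6). In SiHa 0 of 19 genes passed the rule (median -0.11), where 0.572% of all genes were higher and 0.743% lower.

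Mesenchymal genes as a group did not move one way in ME-180, so ZEB1, ZEB2 and FN1 are called by their names here. Of 14 genes at 1 CPM in ME-180, 4 were higher, FN1 included, and 4 lower (median 0.03, and -0.17 without FN1). These counts are near the shares of all genes, 28.2% higher and 20.6% lower. FBN1, fibrillin 1, had 984 counts in knockdown against 53 in control, 20.0-fold higher (15.1 to 26.8). COL3A1, a fibrillar collagen, was 19.6-fold higher (10.1 to 43.6), and ACTA2, smooth muscle actin, 7.80-fold higher (5.47 to 11.5). COL5A2, another fibrillar collagen, had 160 counts in knockdown against 17062 in control, 99.2-fold lower (84.9 to 117). LOX had 187 counts in knockdown against 1564 in control, 7.78-fold lower (6.68 to 9.10). The other lower genes were COL1A1, at a log2 ratio of -1.27, and TAGLN, at -1.26. VIM had no row in either table and CDH2 none in ME-180. In SiHa, FN1 was the 1 lower gene of 21, and POSTN, periostin, the 1 higher, with 20 counts in overexpression against 1 in vector (median -0.09). Of all SiHa genes 0.743% were lower and 0.572% higher.

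**Figure D3:**
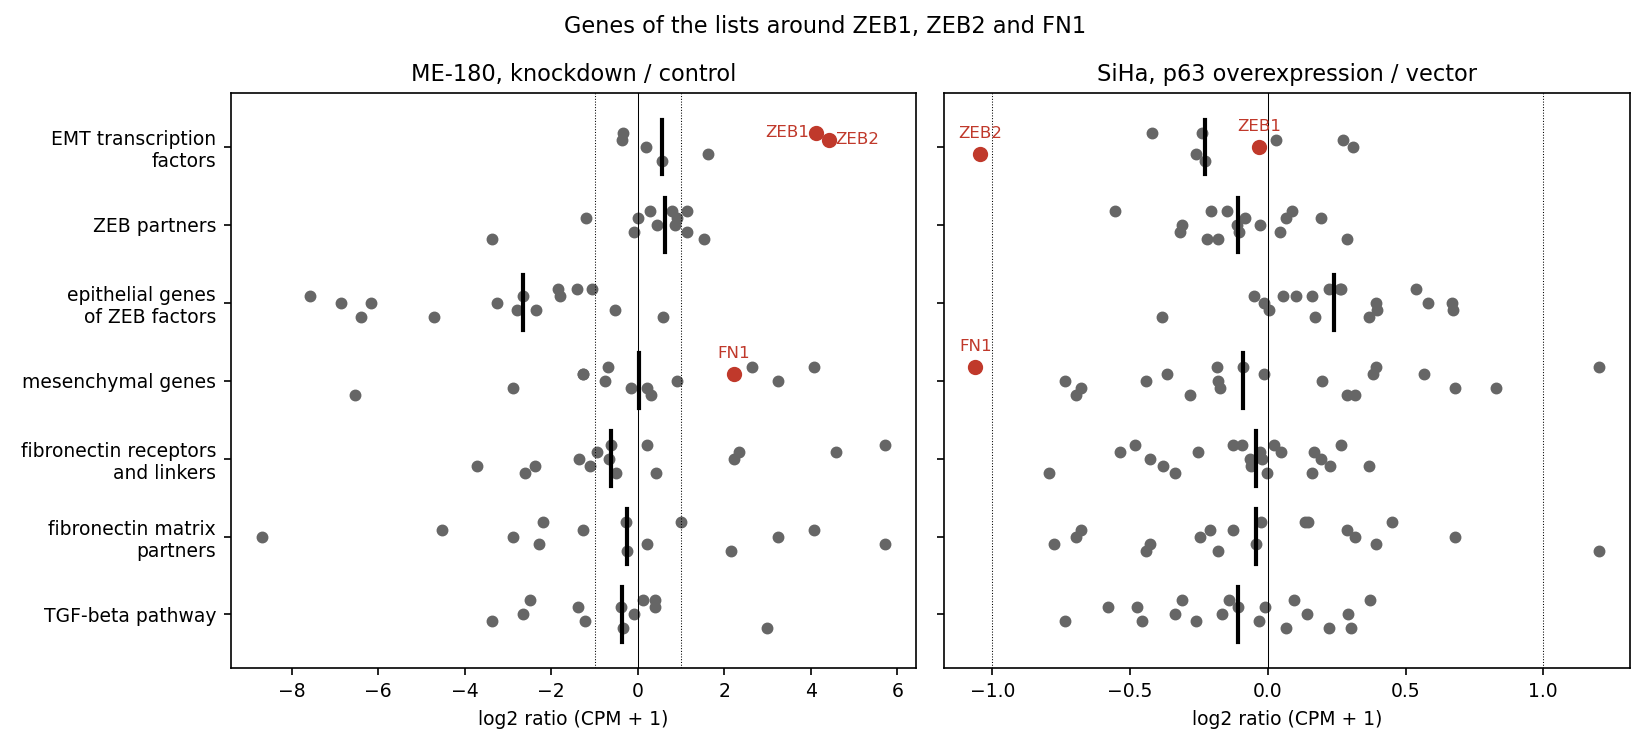
Log2 ratios of CPM + 1 for the genes of 7 lists that reached 1 CPM, in ME-180 knockdown over control (left) and SiHa p63 overexpression over vector (right), on different x axes. Grey points are genes, red points ZEB1, ZEB2 and FN1, black bars list medians and dotted lines 2-fold; the epithelial list lies lowest in ME-180, with a median of -2.65.

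Receptors of fibronectin did not move one way in ME-180. Of 34 listed receptors and adhesion linkers, 15 reached 1 CPM in ME-180, with 4 higher and 5 lower (median -0.63), where 28.2% of all genes were higher and 20.6% lower. ITGA4, the integrin alpha 4 chain that binds fibronectin, had 568 counts in knockdown against 1 in control, a ratio of 611 (109 to 24169). PARVB, an actin linker of integrin adhesions, was 59.0-fold higher (28.4 to 148). ITGB7, a partner chain of ITGA4, was 8.25-fold lower (5.35 to 13.3). ITGB6, the epithelial partner of ITGAV, had 2 counts in knockdown against 159 in control, a 73.9-fold lower level (20.1 to 616). ITGA5 and ITGB1, the chains of the classical fibronectin receptor, had no row in ME-180. In SiHa they had 2804 and 4120 counts in overexpression against 3042 and 4564 in vector. There 0 of 22 genes passed the rule (median -0.04), where 0.572% of all genes were higher and 0.743% lower.

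Matrix partners of fibronectin were found in both directions. This list shares genes with the mesenchymal list, among them FBN1, COL3A1, COL1A1, LOX and POSTN. Their calls are counted in both lists, which are not separate observations. Of 14 genes at 1 CPM in ME-180, 5 were higher and 6 lower (median -0.26), beside 28.2% and 20.6% of all genes. VCAN, the proteoglycan versican, had 562 counts in knockdown against 1 in control, a ratio of 604 (108 to 23914). TGFBI, an adhesive matrix protein, had 4 counts in knockdown against 6200 in control, 1441-fold lower (563 to 5292). SDC1, an epithelial syndecan, was 23.5-fold lower (21.3 to 26.0). In SiHa only POSTN was higher among 19, and 0 were lower (median -0.04), beside 0.572% and 0.743% of all genes. ITGA4 had 29 counts in SiHa overexpression against 50 in vector, and VCAN 33 against 51.

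**Figure D4:**
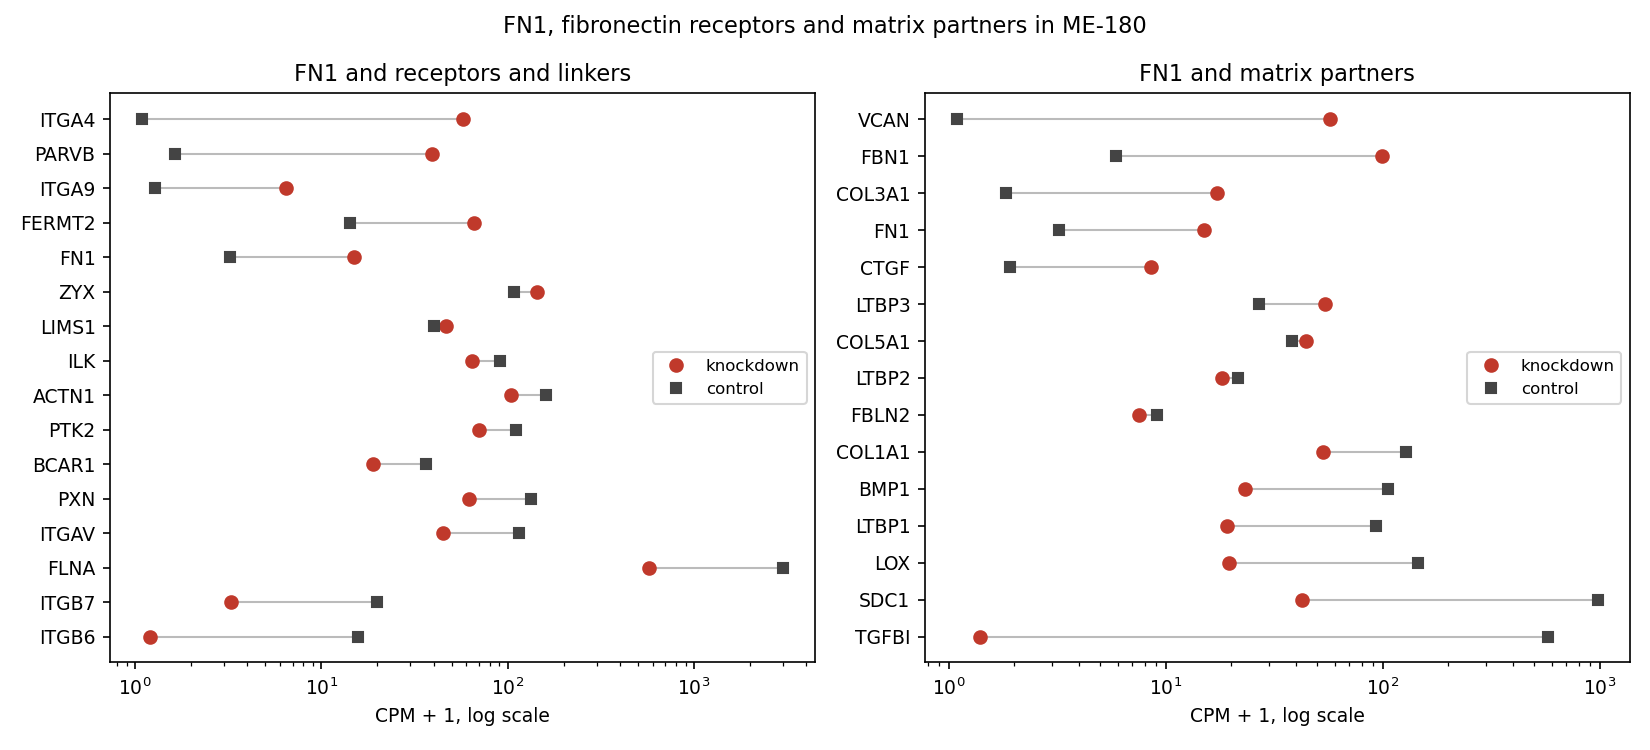
CPM + 1 (log scale) in ME-180 knockdown (red circles) and ME-180 control (dark squares) for FN1 with its receptors and linkers (left) and its matrix partners (right), ordered by log2 ratio. ITGA4 and VCAN are at the top with higher knockdown values and FN1 lies further down, and ITGB6 and TGFBI are at the bottom with higher control values.

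Marker lists of other cell types did not all move one way in ME-180, where 28.2% of all genes were higher and 20.6% lower. Fibroblast markers had rows for 7 of 10 genes, with a summed level of 94.96 CPM in knockdown against 152 CPM in control and 0 at 0 counts in knockdown against 1 in control. COL1A1 made up most of that sum, with 52.2 CPM in knockdown against 127 CPM in control. Of the 5 at 1 CPM, 2 were higher, COL3A1 and PDGFRB, and 1 lower, COL1A1 (median 0.79). COL3A1 and COL1A1 are also counted in the mesenchymal and matrix lists above. PDGFRB, a fibroblast and pericyte receptor, had 25 counts in knockdown against 0 in control, and LUM 1 against 2. Endothelial markers summed to 2.79 CPM in knockdown against 15.6 CPM in control, with 3 of 6 at 0 counts in knockdown against 1 in control. VWF made up most of the control sum, at 0.697 CPM in knockdown against 13.5 CPM in control, and was lower. KDR was higher, with 12 counts in knockdown against 0 in control. Immune markers summed to 6.67 CPM in knockdown against 53.3 CPM in control, with 1 of 7 at 0 counts in each. CD68 made up most of that sum, at 3.78 CPM in knockdown against 50.4 CPM in control, and LYZ had 10 counts in knockdown against 0 in control. Neural and melanocyte markers summed to 62.1 CPM in knockdown against 60.7 CPM in control. Of 5 at 1 CPM, 1 was higher and 2 lower (median -0.83). The higher was NEFM, a neurofilament, with 353 counts in knockdown against 12 in control. The lower were MITF, with 32 counts in knockdown against 193 in control, and PMEL, with 28 against 73. In SiHa the summed levels were 24.8 CPM in overexpression against 33.0 CPM in vector for fibroblast, 11.3 against 12.4 CPM for endothelial, 139 against 126 CPM for immune and 467 against 372 CPM for neural and melanocyte markers. Of 7 markers listed for cervical squamous lines in ME-180, 6 were lower and 1, CDKN2A, higher (median -8.35). In SiHa 5 of 9 were higher (median 1.09), where 0.572% of all genes were. TP63, the gene targeted in both lines, is itself counted among the lower in ME-180 and the higher in SiHa. The lower in ME-180 also include the keratins KRT8 and KRT18. The part of these markers in the ZEB1, ZEB2 and FN1 values was not tested.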

How the data were processed

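RNA was measured in 4 libraries, 1 per group. Per the labels' protocols it was extracted with TRIzol. TopHat, Cufflinks, DESeq2 and the build hg19 are listed, per the submitters' processing notes, with no role or version. The sources used here do not give how reads were counted or whether strand was used. The authors deposited whole-number counts per RefSeq transcript, with log2 fold changes and p-values of their own, 15189 transcripts for ME-180 and 16600 for SiHa. The tables hold part of the transcripts, so a missing gene is not a gene at 0.

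Counts were divided by the table total (CPM). Each gene took its transcript with the highest summed CPM, and log2 ratios used a pseudocount of 1, which shrinks low genes. Intervals are exact (Poisson for levels, conditional binomial for ratios, SciPy 1.17.1) and cover counting error only. For folds, a library with 0 counts was given 3 counts as its floor. No p-value was computed. Trimmed mean scaling used edgeR 4.0.16. The 2-fold rule and intervals were tested on simulated counts. The genes, lists and the rule for named genes were chosen with earlier results of these data known. Named list genes are up to 4 past the rule with the largest ratio per list, and other genes were named after their values were seen. Replicates do not exist, so none were left out. An item of the lists is not reported here and is in none of their counts.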

Additional observations from a re-analysis of the deposited data

How the results depend on the processing

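No paired analysis was possible because each group has 1 library and no result comes from a test. In ME-180 all 3 genes stayed past the 2-fold rule under every other scaling, pseudocount, floor and transcript choice tried for the whole gene. Their log2 ratios were 3.96 for ZEB1, 4.26 for ZEB2 and 1.98 for FN1 under trimmed mean scaling, which moved the median of all genes from 0.28 to 0.00 and the share of higher genes among those called from 57.8% to 47.4%. With a pseudocount of 0.1, ZEB1 was 6.54 and ZEB2 6.86, and with a pseudocount of 5 they were 2.16 and 2.42. Summing the overlapping transcripts gave 6.07 for ZEB1. A pseudocount of 5 left 1272 genes higher and 918 lower in ME-180, against 1914 and 1400. In SiHa it left 14 higher and 6 lower, against 40 and 52, and a pseudocount of 0.1 gave 113 and 227. The SiHa calls of ZEB2 (-0.65) and FN1 (-0.59) were lost with a pseudocount of 5 and kept under both other scalings, at -1.01 and -1.03. The short FN1 transcript, an alternative chosen after seeing the data, passed the rule in neither line (0.82 and -0.51). Of 75 list medians and counts, 2 moved by over 1.5 times under each other scaling, 8 with a pseudocount of 0.1, 11 with one of 5, 3 without the floor and 4 with summed transcripts. None of the log2 ratios past the rule changed sign under these settings. Counts of 0 to 2 in ME-180 control leave the ZEB1 and ZEB2 ratios with wide intervals.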
